A study of Mus musculus with 11 samples.

Results

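A set of 10 genes of the epithelial surface protease system was followed in mouse skin and skin tumors. They are 9 type II transmembrane serine proteases, trypsin-like enzymes held in the plasma membrane near their amino terminus with the catalytic domain outside the cell, and 1 membrane-bound Kunitz inhibitor. The proteases are Tmprss11a, Tmprss11b, Tmprss11d, Tmprss11e, Tmprss11f and Tmprss11g, which lie side by side in the genome, with Tmprss4, Tmprss13 and St14, which encodes matriptase. The inhibitor is Spint1, which encodes HAI-1, the cognate inhibitor of matriptase. The genes were taken by symbol, all 10 were found among 24974 genes, and all 10 were among the 14233 genes tested, which had a mean of at least 0.5 RPKM (reads scaled by the length of the gene and the size of the library) over 11 libraries. The family was chosen by earlier values of the same RPKM table, those of Tmprss11b in tumors against Dlx3 KO skin among them, so its fold changes describe these libraries and are not independent evidence about the family. Tmprss11a and Tmprss11b passed the 0.5 RPKM limit only through the tumors, so they had to differ between tumor and skin.

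RNA was sequenced from Dlx3 KO tumors (n = 5), Dlx3 KO skin (n = 3, described as unaffected whole skin) and WT skin (n = 3). Dlx3 encodes a homeobox factor that acts in hair follicles and in differentiating keratinocytes. KO stands for its conditional knockout (DLX3cKO). The sources used here do not name the driver of the deletion or the age of the mice. All 3 groups, WT included, received topical DMBA, a mutagenic hydrocarbon that starts squamous tumors in mouse skin, on the back in 3 doses of 100 µg in 200 µl given 1 week apart, and were sampled at week 31. No label ties a sample to an animal. Several tumors, or a tumor and a Dlx3 KO skin, may therefore come from the same mouse, and the p-values rest on the spread among samples alone. The comparisons share libraries, since each group enters 2 of them.

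The libraries had 29265111 to 75707445 alignments. Dlx3 was at 1.34 to 7.61 RPKM in the tumors, at 4.08 to 8.88 RPKM in Dlx3 KO skin, and at 49.9, 7.35 and 89.9 RPKM in WT skins 1, 2 and 3 as labelled, so the library labelled WT skin 2 lay within the range of Dlx3 KO skin. The calls against WT skin were therefore also computed without that library. Tumor 5 and all skins other than Dlx3 KO skin 1 belong to a first sequencing run of 6 libraries, and tumors 1 to 4 and Dlx3 KO skin 1 to a second run of 5. Rn45s, a ribosomal RNA gene, was at 11833 RPKM in tumor 5 and 10021 RPKM in WT skin 1, and at 612 to 3242 RPKM in the other libraries. Every tumor value of the first run therefore rests on tumor 5, the library highest in Rn45s. Defining genes of the epidermis were present throughout: 9 pan-epithelial genes summed to 2158 to 4563 RPKM in tumors, 2979.8 to 3544 RPKM in the Dlx3 KO skins and 2004 to 2823 RPKM in the WT skins.

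Type II transmembrane serine proteases are made as inactive precursors and cut near the surface of epithelial cells, where they activate other proteases, growth factor precursors, ion channels and receptors. In mouse skin, matriptase is needed for the barrier of the stratum corneum, and its overexpression in basal keratinocytes causes squamous carcinoma unless HAI-1 is raised with it. Members of the Tmprss11 group, also called the HAT and DESC proteases, are typical of airway, oral, oesophageal and other stratified epithelia.

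The 6 Tmprss11 genes lie on mouse chromosome 5 (GENCODE M21 on GRCm38, the build that mm10 names), all on the minus strand, within 444 kb from 86302217 to 86745815. From the left end the order is Tmprss11d, Tmprss11a, Tmprss11g, Tmprss11f, Tmprss11b and Tmprss11e, with 9 to 11 exons each. Tmprss4 (9, 45172726 to 45204092, minus strand) and Tmprss13 (9, 45319100 to 45347581, plus strand) lie near each other on chromosome 9. St14 lies on the same chromosome (31089402 to 31131853, minus strand), and Spint1 lies on chromosome 2 (119237362 to 119249527, plus strand). No 50-base stretch of a transcript of any of the 10 genes, the read length used here, was shared with another of the 10. Reads of the close paralogs can therefore be told apart where they match the annotation exactly. Of the 50-base stretches of Tmprss4, 11.9% were shared with the antisense gene Gm17099, and Tmprss13 overlaps the antisense gene 1700003G13Rik. The sources used here do not give the strand setting of the authors' counting, and reads of these antisense genes may be counted in Tmprss4 and Tmprss13.

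Promoter sequences of 300 bases (250 before to 50 after the start, RefSeq, GRCm38.p6) were found for 6 of the 10 genes, 5 of them in the cluster. The 5 are shown because they belong to neighbouring genes that moved in opposite directions between tumor and skin. All are given 5′ to 3′ along the minus strand, and capitals mark matches on either strand to TGANTCA, the core letters of AP-1 sites, or to TAATT, a core shared by many homeobox factors. The windows are chr5:86373338-86373637 for Tmprss11d, chr5:86468941-86469240 for Tmprss11a, chr5:86518551-86518850 for Tmprss11g, chr5:86632375-86632674 for Tmprss11f and chr5:86676249-86676548 for Tmprss11b.
Tmprss11d: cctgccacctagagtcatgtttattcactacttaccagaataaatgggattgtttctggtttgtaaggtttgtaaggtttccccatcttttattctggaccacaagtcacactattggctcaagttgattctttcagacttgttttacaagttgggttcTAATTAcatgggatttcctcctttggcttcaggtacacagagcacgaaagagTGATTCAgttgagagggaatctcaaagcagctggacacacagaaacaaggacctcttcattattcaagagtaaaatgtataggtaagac
Tmprss11a: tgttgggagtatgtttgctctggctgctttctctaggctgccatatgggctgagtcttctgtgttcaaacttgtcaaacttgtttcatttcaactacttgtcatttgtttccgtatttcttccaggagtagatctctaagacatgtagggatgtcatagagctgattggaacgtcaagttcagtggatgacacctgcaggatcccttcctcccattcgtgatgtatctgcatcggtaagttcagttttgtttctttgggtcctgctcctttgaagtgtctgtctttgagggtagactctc
Tmprss11g: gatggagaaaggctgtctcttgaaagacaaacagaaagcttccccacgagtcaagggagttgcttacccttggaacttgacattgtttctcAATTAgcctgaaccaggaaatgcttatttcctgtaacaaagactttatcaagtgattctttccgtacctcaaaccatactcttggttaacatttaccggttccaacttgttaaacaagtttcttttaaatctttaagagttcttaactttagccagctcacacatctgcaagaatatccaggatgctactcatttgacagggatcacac
Tmprss11f: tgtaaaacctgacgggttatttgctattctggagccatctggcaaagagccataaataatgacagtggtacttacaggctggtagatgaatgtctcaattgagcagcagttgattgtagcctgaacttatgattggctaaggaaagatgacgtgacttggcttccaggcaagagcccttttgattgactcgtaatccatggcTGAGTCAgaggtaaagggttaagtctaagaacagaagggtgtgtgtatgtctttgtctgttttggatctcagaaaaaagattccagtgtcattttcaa
Tmprss11b: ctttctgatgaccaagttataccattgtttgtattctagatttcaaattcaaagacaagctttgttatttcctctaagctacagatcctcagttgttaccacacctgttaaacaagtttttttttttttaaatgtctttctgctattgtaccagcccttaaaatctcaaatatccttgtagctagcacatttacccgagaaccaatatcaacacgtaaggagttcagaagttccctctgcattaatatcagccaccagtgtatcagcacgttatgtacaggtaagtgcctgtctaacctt
The 5 windows held 36.7% to 44.3% G and C, against a median of 52.7% over 32851 mouse promoters. TGANTCA occurred in Tmprss11d (TGATTCA, at -39 from the start) and in Tmprss11f (TGAGTCA, at -48), and in 7.81% of all promoters. TAATT occurred in Tmprss11d, where matches on both strands overlap as TAATTA at -91, and in Tmprss11g (as AATTA, at -159), and in 27.0% of all promoters. The windows of Tmprss11a and Tmprss11b held neither set of letters. The Spint1 promoter, which is richer in G and C (69.7%), held TGACTCA at -6. A match is a description of letters and does not show binding.

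What separates a tumor from unaffected skin of the same genotype was addressed first. Of the 10 genes, tumors had 5 that rose and 1 that fell relative to Dlx3 KO skin, and all 6 are in the Tmprss11 cluster. Tmprss11a, Tmprss11b, Tmprss11d and Tmprss11g were low in both kinds of skin and rose to several RPKM or more in every tumor, Tmprss11e rose less, and Tmprss11f, in the middle of the cluster, fell. Tmprss4, Tmprss13, St14 and Spint1 did not pass. Over all tested genes, 0.998% rose and 6.56% fell in this comparison, 7.55% in all. In 5 of the 10 genes every tumor lay above every Dlx3 KO skin, as in 4.65% of all tested genes. Since the values of this contrast were known when the genes were chosen, nothing is read from the size of the count. The median log2 fold change was 0.74 over the 10 genes, 2.97 over the cluster and -0.23 over all tested genes.

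Tmprss11a, known in human as HATL1, was at 14.1, 8.20, 12.0, 11.04 and 4.94 RPKM in tumors 1 to 5, at 0.232, 0.265 and 0.824 RPKM in Dlx3 KO skin and at 0.0749, 0.461 and 0.0553 RPKM in WT skin. Every tumor lay above every skin, and the Dlx3 KO and WT skins overlapped. The log2 fold change, on the log2(RPKM + 0.5) scale that understates changes of low genes, was 3.46 ± 0.35 (SE) in tumors against Dlx3 KO skin (limma adjusted p = 0.000109) and 3.89 ± 0.35 against WT skin (adjusted p = 3.06e-05). In bulk tissue, fewer cells that express a gene and less RNA per cell cannot be told apart. Tmprss11b, HATL5 in human, was at 13.5, 10.96, 34.5, 9.31 and 7.002 RPKM in the tumors, at 0.418, 0.375 and 0.925 RPKM in Dlx3 KO skin and at 0.0770, 0.401 and 0.0398 RPKM in WT skin. Again all tumors lay above all skins, and tumor 3 stood well above the other 4. Its log2 fold change was 3.67 ± 0.43 against Dlx3 KO skin (limma adjusted p = 0.00032) and 4.34 ± 0.43 against WT skin (adjusted p = 5.68e-05). Since both genes passed the limit for testing only through the tumors, these adjusted p-values are descriptions and not evidence of a difference.

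Tmprss11d, the mouse counterpart of human airway trypsin-like protease, was at 25.8, 12.9, 22.1, 11.3 and 13.1 RPKM in the tumors, at 0.699, 2.37 and 3.80 RPKM in Dlx3 KO skin and at 0.306, 1.40 and 0.0287 RPKM in WT skin. The tumors lay above the skins, and Dlx3 KO skin 1 lay below the library labelled WT skin 2. Its log2 fold change was 2.76 ± 0.49 (SE) against Dlx3 KO skin (limma adjusted p = 0.00583) and 4.16 ± 0.49 against WT skin (adjusted p = 0.000185). Tmprss11g was at 16.8, 21.7, 8.73, 19.9 and 23.5 RPKM in the tumors, at 2.18, 0.723 and 1.73 RPKM in Dlx3 KO skin and at 0.574, 0.574 and 0.338 RPKM in WT skin. It separated all 3 groups without overlap, and tumor 3, the highest for Tmprss11b, was the lowest tumor for Tmprss11g. Against Dlx3 KO skin, the tumors' value was 3.19 ± 0.34 on the log2 scale (SE; limma adjusted p = 0.000164) and 4.16 ± 0.34 against WT skin (adjusted p = 1.85e-05). Leaving out the library labelled WT skin 2, the 4 log2 fold changes against WT skin ran from 4.14 for Tmprss11a to 4.67 for Tmprss11d, and all 4 stayed called.

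**Figure D1:**
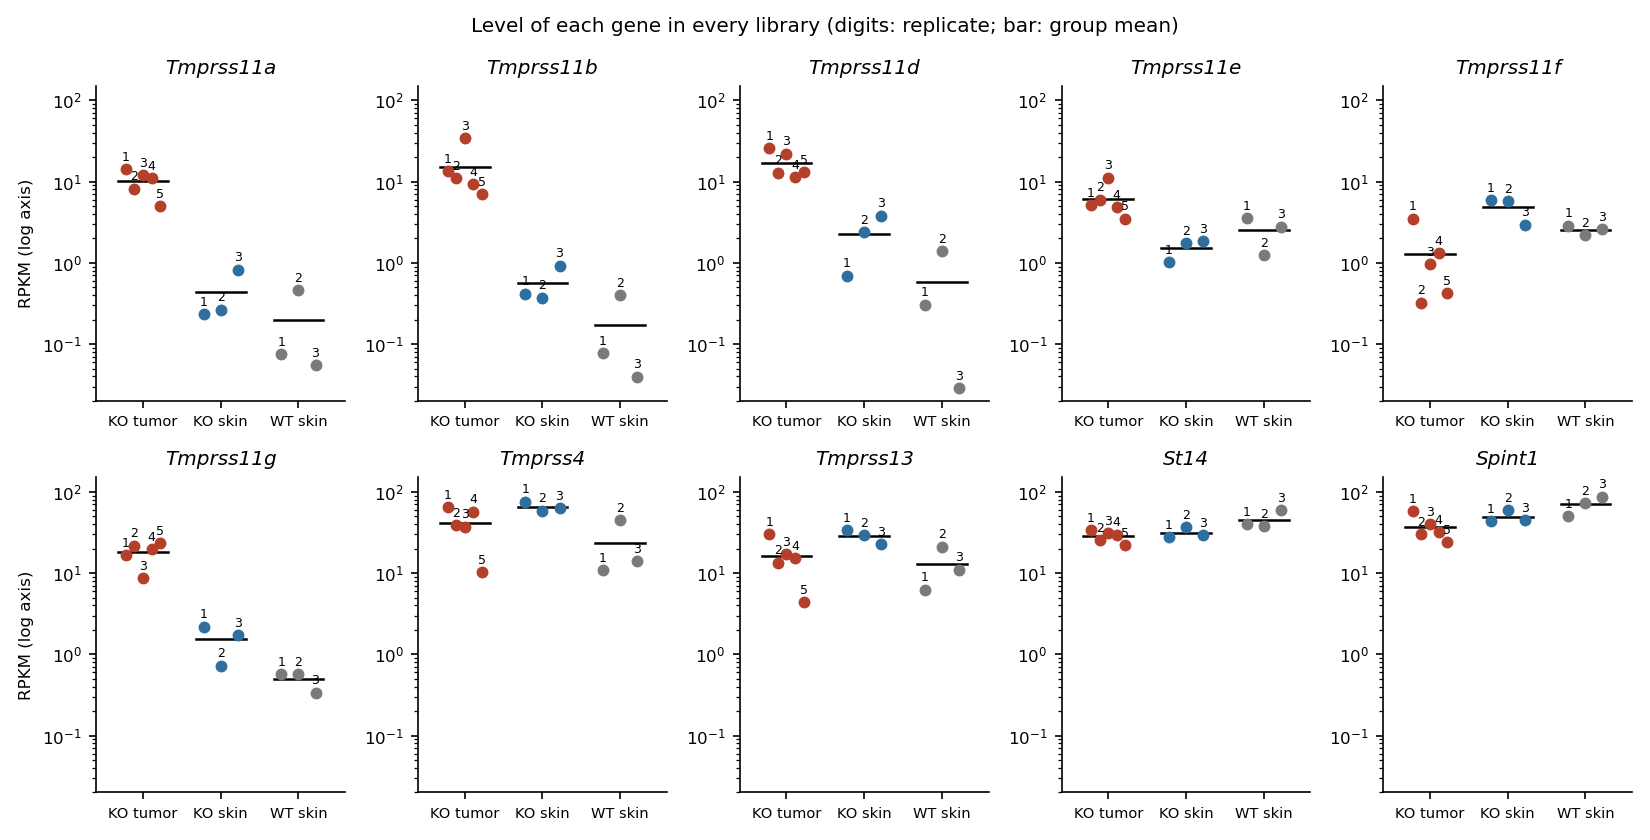
RPKM (log axis) of the 10 genes in each of the 5 Dlx3 KO tumors, 3 Dlx3 KO skins and 3 WT skins, with digits for the replicate and bars for group means. Tmprss11a, Tmprss11b, Tmprss11d and Tmprss11g lie higher in every tumor than in any skin, while St14 and Spint1 span less than 3-fold within each group.

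Tmprss11e, named DESC1 in human for its differential expression in squamous cell carcinoma, was at 5.13, 5.97, 11.2, 4.85 and 3.48 RPKM in the tumors, at 1.02, 1.75 and 1.84 RPKM in Dlx3 KO skin and at 3.51, 1.25 and 2.79 RPKM in WT skin. The tumors lay above Dlx3 KO skin, and the lowest tumor lay just below WT skin 1. Against Dlx3 KO skin, the tumors' log2 fold change was 1.63 ± 0.36 (SE; limma adjusted p = 0.021, kept in 19 of 25 alternative settings, 0.00963 to 0.356). The call was lost without tumor 2 (adjusted p = 0.0507) or without Dlx3 KO skin 1, 2 or 3 (0.0912, 0.0604 and 0.0685). Against WT skin it was 1.12 ± 0.36 and did not pass (adjusted p = 0.057), but passed without tumor 5 (1.28, adjusted p = 0.033) and under median-ratio scaling (1.31, adjusted p = 0.0275). With WT skin 2 as labelled left out, it was 0.77 (adjusted p = 0.218). Tmprss11f, HATL4 in human, is known in mice for a part in the epidermal barrier. It was at 3.49, 0.324, 0.958, 1.32 and 0.426 RPKM in the tumors, at 5.96, 5.69 and 2.94 RPKM in Dlx3 KO skin and at 2.87, 2.18 and 2.62 RPKM in WT skin. Tumors 2 to 5 lay below all skins, and tumor 1 lay above Dlx3 KO skin 3 and all WT skins. The log2 fold change was -1.77 ± 0.45 against Dlx3 KO skin (limma adjusted p = 0.0381), and this call was kept in only 9 of 25 alternative settings (0.00123 to 0.58), with the value at or below -1.35 in all of them. Among the fits that left out 1 library, it was kept only without tumor 1 or the library labelled WT skin 2, and the adjusted p in the other 9 ran from 0.0549 without WT skin 1 to 0.147 without Dlx3 KO skin 2. Against WT skin it was -1.004 ± 0.45 and did not pass (adjusted p = 0.162), but passed without tumor 1 (-1.35, adjusted p = 0.0119) and in the first sequencing run alone (-1.72, adjusted p = 0.0421). Leaving out the library labelled WT skin 2 gave -1.09 (adjusted p = 0.231).

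The rises and the fall kept their direction within each sequencing run. In the first run (tumor 5 against 2 Dlx3 KO skins) the log2 fold change was 2.43 for Tmprss11a, 2.75 for Tmprss11b, 1.96 for Tmprss11d, 0.80 for Tmprss11e, -2.32 for Tmprss11f and 3.86 for Tmprss11g. The calls of Tmprss11d (limma adjusted p = 0.108) and Tmprss11e (adjusted p = 0.356) were lost there. In the second run (tumors 1 to 4 against 1 Dlx3 KO skin) it was 3.99 for Tmprss11a, 4.06 for Tmprss11b, 3.87 for Tmprss11d, 2.19 for Tmprss11e, -1.91 for Tmprss11f and 2.61 for Tmprss11g, and 2 of the 10 genes, Tmprss11a and Tmprss11d, stayed called. A lone library in a fit is taken to vary like the others. Against WT skin, which the second run does not hold, tumor 5 in the first run gave 3.01 for Tmprss11a, 3.52 for Tmprss11b, 3.87 for Tmprss11d, 4.60 for Tmprss11g and -1.72 for Tmprss11f, all called, and 0.48 for Tmprss11e (limma adjusted p = 0.579).

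The makeup of the cluster differed along with its level. The 6 genes summed to 78.8, 60.0, 89.5, 57.7 and 52.5 RPKM in tumors 1 to 5, to 10.5, 11.2 and 12.1 RPKM in Dlx3 KO skin and to 7.42, 6.28 and 5.86 RPKM in WT skin. The mean sum was 67.7 ± 15.7 RPKM in tumors (SD, n = 5), 11.2 ± 0.780 RPKM in Dlx3 KO skin (n = 3) and 6.52 ± 0.804 RPKM in WT skin (n = 3), and the 3 groups did not overlap. Tmprss11f made up 0.539% to 4.43% of the sum in tumors, 24.4% to 56.7% in Dlx3 KO skin and 34.8% to 44.6% in WT skin. The leading gene varied among tumors: it was Tmprss11g in tumors 2, 4 and 5 (36.1%, 34.5% and 44.8% of the sum), Tmprss11d in tumor 1 (32.8%) and Tmprss11b in tumor 3 (38.5%). In skin, the leading gene was Tmprss11f in Dlx3 KO skin 1 and 2 and in the library labelled WT skin 2, Tmprss11d in Dlx3 KO skin 3, and Tmprss11e in WT skin 1 and 3. These sums and shares contain the values that were known when the genes were chosen, and they are given with no test.

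**Figure D2:**
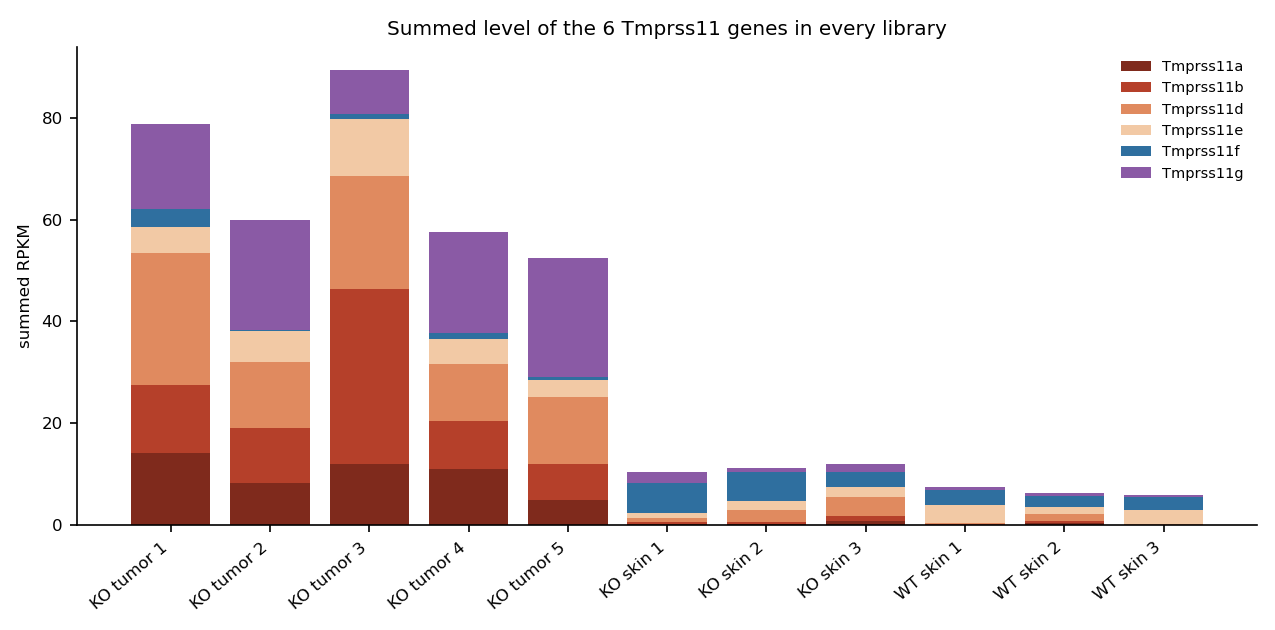
Stacked RPKM of the 6 Tmprss11 genes in every library, tumors on the left, then Dlx3 KO skin, then WT skin. Sums run from 52.5 to 89.5 RPKM in tumors, from 10.5 to 12.1 RPKM in Dlx3 KO skin and from 5.86 to 7.42 RPKM in WT skin, and the Tmprss11f layer (blue) is thin in the tumors.

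Of the marker genes of mucosal linings, Krt13 and Sprr3 were higher in every tumor than in any skin. Of 6 tested marker genes of non-cornified mucosal epithelium, 2 rose in tumors against Dlx3 KO skin and 0 fell. Krt13, the keratin that marks oral and oesophageal lining, was at 67.0, 256, 1374, 47.9 and 156 RPKM in the tumors, at 1.58 to 2.22 RPKM in Dlx3 KO skin and at 0.356 to 2.38 RPKM in WT skin (log2 fold change 6.28 against Dlx3 KO skin, limma adjusted p = 0.00126). Sprr3, a cornified envelope protein of oral and oesophageal lining, had a log2 fold change of 4.85 (limma adjusted p = 0.0156, and 0.0508 to 0.0702 without any 1 of the Dlx3 KO skins). The mean RPKM of Sprr3 was 66.2 for tumors, but only 0.704 (Dlx3 KO) and 0.174 (WT) for the skins. Sprr3 reached the limit for testing only through the tumors, so it had to differ between tumor and skin. Its adjusted p-values are therefore no evidence of a difference. The other 4 marker genes were not called. Krt4, the partner keratin of Krt13, had 3.28 (adjusted p = 0.123) and Mal 1.53 (adjusted p = 0.243), and Krt78 had -1.13 (adjusted p = 0.472). Crnn, which encodes cornulin of squamous epithelia, had 1.73 against Dlx3 KO skin (adjusted p = 0.307) and -2.15 against WT skin (adjusted p = 0.184). Its level was 1.93 to 9.38 RPKM in tumors, 0.349 to 1.58 RPKM in Dlx3 KO skin and 44.2, 1.56 and 97.6 RPKM in WT skins 1, 2 and 3 as labelled. Without the library labelled WT skin 2, Crnn fell in tumors against WT skin (-3.82, adjusted p = 0.00167). The whole list of 7 genes summed to 155 to 1732 RPKM in tumors, 103 to 165 RPKM in the Dlx3 KO skins and 64.3 to 225 RPKM in WT skin, and its member Muc4 was at 0 in Dlx3 KO skin 2 and 3 and WT skin 3. Tumor 3, highest in Krt13, was also highest in Tmprss11b and Tmprss11e, but tumor 1, highest in Tmprss11a and Tmprss11d, had less Krt13 than tumors 2, 3 and 5. Basal keratinocyte genes summed to 9438 to 18471 RPKM in tumors, 4161 to 6708 RPKM in the Dlx3 KO skins and 2286 to 6047 RPKM in WT skin. These sums rest mainly on Krt14 and Krt5 (10008 and 3502 RPKM on average in tumors). Of the 7 genes, 2 were called higher and 0 lower against Dlx3 KO skin, where 0.998% and 6.56% of all tested genes were. The 2 became 0 without any 1 of the Dlx3 KO skins or of tumors 2 to 5. Without tumor 1, 3 were called higher and 1 lower. Against WT skin, 4 were called higher and 1 lower (2 and 0 without WT skin 3), where 3.56% and 12.0% of all tested genes were. The 1 called lower against WT skin was Krt15, at a mean of 155, 322 and 505 RPKM in tumors, Dlx3 KO skin and WT skin. Its log2 fold change was -1.49 against Dlx3 KO skin (limma adjusted p = 0.123) and -2.11 against WT skin (adjusted p = 0.0252). The latter call was lost without the library labelled WT skin 2 (adjusted p = 0.0737). Relative to Dlx3 KO skin, where 6.56% of all tested genes fell, 8 of 8 skeletal muscle and 6 of 7 adipocyte genes fell in tumors. The second count was 3 without Dlx3 KO skin 3. In the first, Myh4 passed narrowly (-4.72, limma adjusted p = 0.0499), at 5.88, 212 and 376 RPKM in Dlx3 KO skins 1, 2 and 3. The part of these differences in tissue makeup in the protease values was not tested.

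No tested gene next to the cluster was called. Within 500 kb on either side lie 12 other protein-coding genes, of which 4 were expressed enough to be tested, and 0 of the 4 were called in any of the 3 comparisons. Over all tested genes, 7.55% were called in tumors against Dlx3 KO skin, 15.5% against WT skin and 0.0% between the skins. With shares this low, 0 of 4 does not set the neighbours apart from other genes. Ythdc1, a reader of modified RNA bases that lies next to Tmprss11e, averaged 23.3 RPKM in tumors, 20.6 RPKM in the Dlx3 KO skins and 19.7 RPKM in WT skin (log2 fold change 0.09 against Dlx3 KO skin, limma adjusted p = 0.872). On the other side of the cluster, Uba6, an enzyme that activates ubiquitin, had a log2 fold change of 0.29 against Dlx3 KO skin (adjusted p = 0.496). Tmprss11c, the closest neighbour of Tmprss11d and of the same family, was not tested and averaged 0.00257 RPKM in tumors. It was listed at 0 in all skins. Ugt2b35, a glucuronosyltransferase, averaged 3.13 RPKM in tumors and 0.0251 RPKM in Dlx3 KO skin but did not pass (log2 fold change 1.31, limma adjusted p = 0.382).

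**Figure D3:**
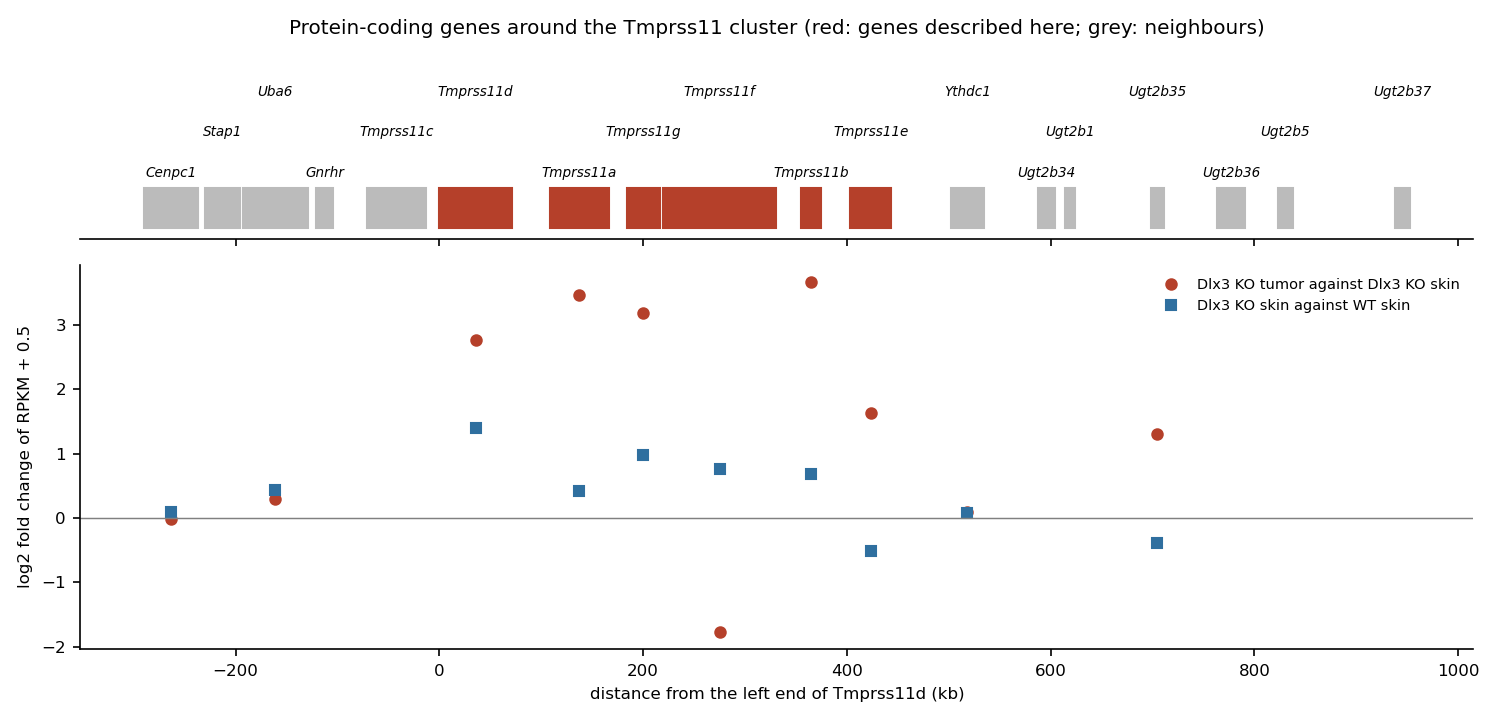
Map of the protein-coding genes around the Tmprss11 cluster by distance in kb from the left end of Tmprss11d, with log2 fold changes of the tested genes below at each gene's midpoint. In Dlx3 KO tumor against Dlx3 KO skin (circles), 5 cluster genes lie between 1.63 and 3.67 and Tmprss11f at -1.77. Ythdc1 lies at 0.09 beside them, and Ugt2b35, further to the right, at 1.31.

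Tmprss4 and Tmprss13 had a different pattern, with a level in skin that was already high. Tmprss4, a protease that can activate the epithelial sodium channel and is overexpressed in several human carcinomas, was at 64.6, 38.8, 37.2, 57.2 and 10.3 RPKM in the tumors, at 75.6, 58.7 and 62.8 RPKM in Dlx3 KO skin and at 10.9, 44.7 and 14.1 RPKM in WT skin. Dlx3 KO skin lay above WT skin, and tumors spread over the ranges of both. The log2 fold change was -0.87 ± 0.57 (SE) in tumors against Dlx3 KO skin (limma adjusted p = 0.361) and 1.75 ± 0.64 in Dlx3 KO skin against WT skin (adjusted p = 0.448). Tmprss13, also called MSPL and known in mice for its part in barrier formation, was at 30.3, 13.4, 17.1, 15.3 and 4.39 RPKM in the tumors, at 34.0, 29.3 and 22.5 RPKM in Dlx3 KO skin and at 6.27, 21.1 and 11.02 RPKM in WT skin. Here too Dlx3 KO skin lay above WT skin, the library labelled WT skin 2 came close to it, and tumor 5 was lowest of all 11. The log2 fold change was -1.02 ± 0.52 in tumors against Dlx3 KO skin (limma adjusted p = 0.244) and 1.27 ± 0.58 in Dlx3 KO skin against WT skin (adjusted p = 0.578).

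The levels of Tmprss4 and Tmprss13 are given beside those of differentiated epidermis. The suprabasal list, which includes Krt1 and Krt10, summed to 33419.9, 12637, 5571, 28818 and 1156 RPKM in tumors 1 to 5, to 25188 to 26565 RPKM in Dlx3 KO skin and to 3505, 45357 and 3410.35 RPKM in WT skins 1, 2 and 3 as labelled. Tumor 5 and WT skin 1 and 3 were low in the list and in both proteases. The library labelled WT skin 2 was the highest of all in the list but lay below every Dlx3 KO skin in both proteases. Tumor 3 was low in the list, but its Tmprss13 lay above that of tumors 2 and 4. Of the 7 tested genes of the list, 0 were called in any of the 3 comparisons, and at most 1 in the fits without tumor 1 or tumor 5. The share called over all tested genes was 7.55% in tumors against Dlx3 KO skin, 15.5% against WT skin and 0.0% between the skins. The part of the suprabasal list in the values of Tmprss4 and Tmprss13 was not tested. Within the first run, tumor 5 against 2 Dlx3 KO skins gave log2 fold changes of -2.51 for Tmprss4 (limma adjusted p = 0.0706) and -2.42 for Tmprss13 (adjusted p = 0.0412). Within the second run, tumors 1 to 4 against 1 Dlx3 KO skin gave -0.65 and -0.90, which did not pass (adjusted p = 0.635 and 0.614).

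Matriptase and its inhibitor were expressed at more than 20 RPKM in every library, and neither passed between tumors and Dlx3 KO skin. St14 was at 33.5, 25.3, 30.9, 29.6 and 22.01 RPKM in the tumors, at 27.8, 36.6 and 29.3 RPKM in Dlx3 KO skin and at 40.1, 37.6 and 59.0 RPKM in WT skin. Tumors and Dlx3 KO skin overlapped, and all 8 of these libraries lay below the WT skins. The log2 fold change was -0.15 ± 0.21 (SE) in tumors against Dlx3 KO skin (limma adjusted p = 0.691), a sign that turned under median-ratio scaling (0.13), quantile scaling (0.10) and in the second run alone (0.09). Against WT skin it was -0.67 ± 0.21 and did not pass (adjusted p = 0.0546), but passed without tumor 1 (-0.73, adjusted p = 0.0356) and under quantile scaling (-0.55, adjusted p = 0.0352). With WT skin 2 as labelled left out, it was -0.79 (adjusted p = 0.0501). Spint1 was at 58.0, 29.9, 40.1, 31.7 and 23.9 RPKM in the tumors, at 43.9, 59.3 and 45.1 RPKM in Dlx3 KO skin and at 50.5, 72.5 and 86.9 RPKM in WT skin. All groups overlapped, with tumor 1 inside the range of both skins. Its log2 fold change was -0.48 ± 0.29 in tumors against Dlx3 KO skin (limma adjusted p = 0.318). Spint1 fell in tumors against WT skin (-0.95 ± 0.29, adjusted p = 0.0433), a call kept in 9 of 24 alternative settings (0.00753 to 0.238) and lost when the library labelled WT skin 2 was left out (-0.91, adjusted p = 0.112). Among the fits without 1 library, it was kept only without tumor 1 or WT skin 1, and the highest adjusted p was 0.159 without WT skin 3.

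Because scaling cancels within a library, the ratio of matriptase to inhibitor RNA was also compared. St14 RPKM divided by Spint1 RPKM was 0.577, 0.846, 0.770, 0.932 and 0.920 in tumors 1 to 5, 0.634, 0.618 and 0.651 in Dlx3 KO skin and 0.794, 0.519 and 0.678 in WT skin. Tumors 2 to 5 lay above all Dlx3 KO skins, and tumor 1 lay below them. The geometric mean was 0.797 in tumors and 0.634 in Dlx3 KO skin, a log2 difference of 0.33 (two-sided exact permutation p = 0.143, adjusted over 3 comparisons 0.429). In tumors against WT skin, with a geometric mean of 0.797 and 0.654, the log2 difference was 0.29 (exact permutation p = 0.286, adjusted 0.429), and 0.12 when leaving out the library labelled WT skin 2. Dlx3 KO skin and WT skin, at 0.634 and 0.654, differed by -0.04 (exact permutation p = 0.8), where 0.1 is the smallest p that 3 against 3 samples allow. For 5 against 3 the smallest is 0.0179.

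**Figure D4:**
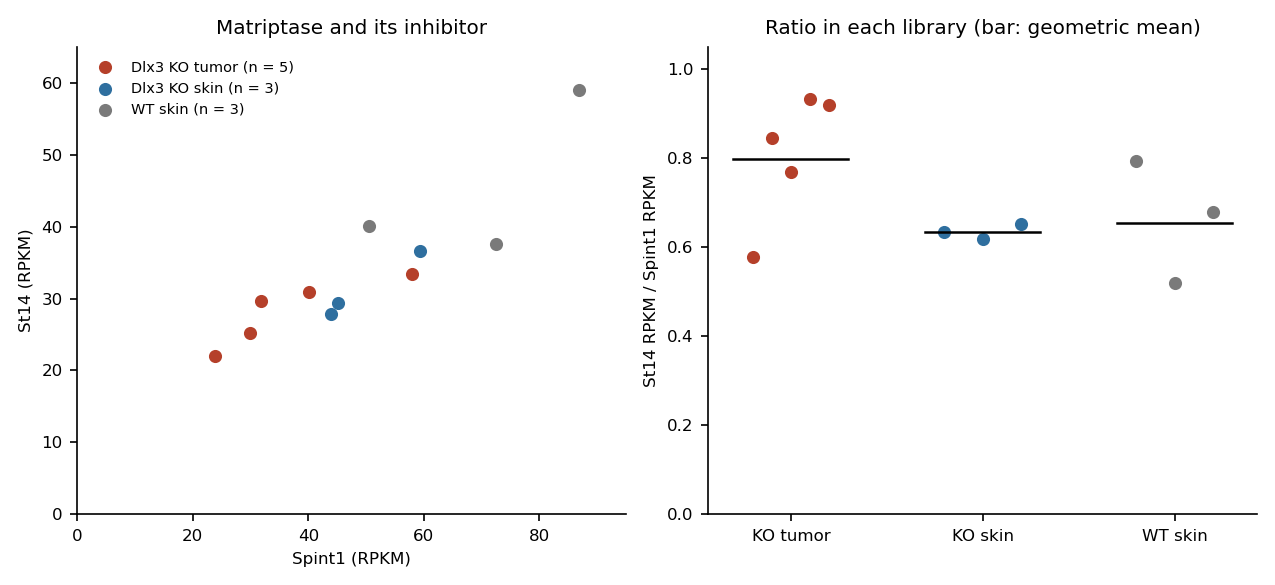
Left, St14 RPKM against Spint1 RPKM in each of the 11 libraries. Right, their ratio in each library by group, with bars at the geometric means of 0.797 in Dlx3 KO tumors, 0.634 in Dlx3 KO skin and 0.654 in WT skin.

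Genes that act with matriptase were read from a list of 19 partners, substrates and inhibitors, 15 of which were tested. Between tumors and Dlx3 KO skin, 0 rose and 0 fell (median log2 fold change -0.16, against -0.23 over all tested genes). Over all tested genes 7.55% were called in this comparison. With a share this low, 0 of 15 does not set the list apart from other genes. Without tumor 1, 3 fell, and in each of the other 10 fits without 1 library 0 were called. Prss8, the lipid-anchored protease prostasin that works in a cascade with matriptase, was at 23.4, 10.1, 20.3, 12.8 and 3.45 RPKM in the tumors, at 30.5, 35.1 and 22.5 RPKM in Dlx3 KO skin and at 13.5, 22.3 and 16.6 RPKM in WT skin (log2 fold change -1.26 against Dlx3 KO skin, limma adjusted p = 0.136). Epcam, an adhesion protein that matriptase cleaves, averaged 59.8 ± 30.2 RPKM in tumors (SD, n = 5) and 124 ± 21.96 RPKM in Dlx3 KO skin (n = 3; -1.17, adjusted p = 0.0669). Klk5, a kallikrein of the stratum corneum, averaged 70.2 ± 60.7 RPKM in tumors and 197 ± 34.5 RPKM in Dlx3 KO skin (-2.06, adjusted p = 0.136). Spint2, the related inhibitor HAI-2, averaged 194 ± 46.4 RPKM in tumors and 214 ± 21.7 RPKM in Dlx3 KO skin (-0.16, adjusted p = 0.661).

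Against WT skin, 2 of the 15 partners rose and 1 fell in tumors, where 3.56% of all tested genes rose and 12.0% fell, 15.5% in all. The 2 that rose were a ligand and its receptor: Mst1, macrophage stimulating protein (log2 fold change 1.07, limma adjusted p = 0.0391), and Mst1r, its receptor RON (1.07, adjusted p = 0.0356). Mst1r averaged 8.67 ± 1.34 RPKM in tumors and 4.10 ± 1.90 RPKM in WT skin (SD, n = 5 and 3). The protease inhibitor Serpina1a fell (-0.87, adjusted p = 0.04). None of these 3 calls was firm. Among the 11 fits without 1 library, that of Mst1 was lost in 6 (adjusted p up to 0.122, without WT skin 3), that of Mst1r in 6 (up to 0.118, without WT skin 1) and that of Serpina1a in 8 (up to 0.122). When WT skin 2 as labelled was the one left out, the log2 fold change was 1.28 for Mst1 (adjusted p = 0.0372), 1.37 for Mst1r (adjusted p = 0.0173) and -0.52 for Serpina1a, whose highest adjusted p this was. Mouse Serpina1 genes are near-identical copies, so its reads may be shared among them. Among the 10 genes themselves, 4 rose (Tmprss11a, Tmprss11b, Tmprss11d and Tmprss11g) and Spint1 fell against WT skin, with a median log2 fold change of 0.998, against -0.14 over all tested genes.

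Other membrane proteases of the same classes were mostly below the limit for testing. Of 11 other type II transmembrane serine proteases in the table, Tmprss7, Hpn and Corin were expressed enough to be tested and 8 were not. Tmprss7, matriptase-3, fell relative to Dlx3 KO skin and averaged 0.668 ± 0.574 RPKM in tumors and 3.15 ± 0.761 RPKM in Dlx3 KO skin (SD, n = 5 and 3, log2 fold change -1.76, limma adjusted p = 0.0224). This call was lost without Dlx3 KO skin 1, 2 or 3 (adjusted p = 0.0897, 0.0829 and 0.0646) or tumor 3 (0.0556). Hpn, hepsin, had -1.09 in the same comparison and did not pass (adjusted p = 0.0701). Corin, known for processing a heart hormone and for its expression in the dermal papilla of mouse hair, fell in tumors against WT skin (-1.46, adjusted p = 0.00691), and by more without the library labelled WT skin 2 (-1.81, adjusted p = 0.00108). Among 4 tested trypsin-like proteases with other membrane anchors, Prss27, also called marapsin, rose in tumors against WT skin (2.08, adjusted p = 0.0202). It averaged 33.5 ± 10.6 RPKM in tumors, 33.9 ± 5.67 RPKM in the Dlx3 KO skins and 10.2 ± 10.6 RPKM in WT skin (SD, n = 5, 3 and 3), where the library labelled WT skin 2 was highest. Without that library the log2 fold change was 2.86 in tumors against WT skin (limma adjusted p = 0.000483) and 2.94 in Dlx3 KO skin against WT skin (adjusted p = 0.00284), and the tumor call was lost without WT skin 1 (1.87, adjusted p = 0.0718) or WT skin 3 (1.499, adjusted p = 0.0936). Prss22 (0.05) and Tpsg1 (-0.92, adjusted p = 0.092) did not pass against Dlx3 KO skin.

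Dlx3 KO skin was set against WT skin (n = 3 each), where no tumor was present. Xist was at 10.1 to 14.6 RPKM in Dlx3 KO skin but at 0.466 and 0.149 RPKM in WT skins 1 and 3. Genotype and Xist level can therefore hardly be told apart in this comparison, and not at all without the library labelled WT skin 2. None of the 10 genes passed in limma, and 0.0% of all tested genes did (0 of 14233), while 4 of the 10 and 1229 of all had an unadjusted p under 0.05. The 4 were Tmprss4 (log2 fold change 1.75), Tmprss11d (1.40), Tmprss13 (1.27) and Tmprss11g (0.97). In 4 of the 10 genes every Dlx3 KO skin lay above every WT skin (Tmprss4, Tmprss13, Tmprss11f and Tmprss11g), as in 11.3% of all tested genes, and in St14 every Dlx3 KO skin lay below (5.1% of all). Groups that did not overlap in either direction made up 16.4% of all tested genes. St14 had -0.52 ± 0.24 (SE, limma adjusted p = 0.579), Spint1 -0.48 ± 0.32 (adjusted p = 0.731) and Tmprss11f 0.76 ± 0.50 (adjusted p = 0.726). With the library labelled WT skin 2 left out, the log2 fold change was 2.35 for Tmprss4 (adjusted p = 0.122), 1.91 for Tmprss11d (adjusted p = 0.144), 1.70 for Tmprss13 (adjusted p = 0.296), 1.03 for Tmprss11g, 0.67 for Tmprss11f, -0.64 for St14 and -0.43 for Spint1, and 0 of the 10 passed, against 234 of all genes.

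**Figure D5:**
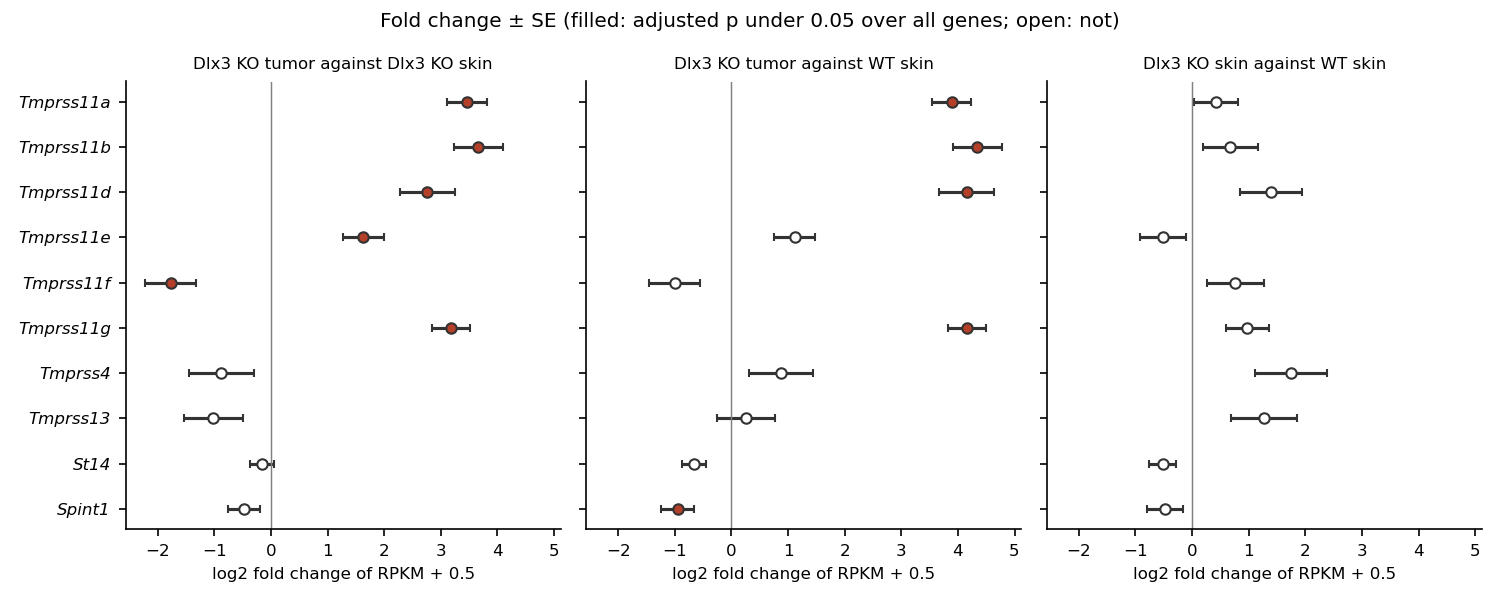
Log2 fold change of RPKM + 0.5 (x axis) with its SE for the 10 genes in the 3 comparisons, filled where the adjusted p over all tested genes was under 0.05. Filled points are 6 genes in Dlx3 KO tumor against Dlx3 KO skin, 5 in Dlx3 KO tumor against WT skin and 0 in Dlx3 KO skin against WT skin.

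By mean level, Tmprss4 (41.6 RPKM), Spint1 (36.7 RPKM) and St14 (28.2 RPKM) led in tumors, followed by Tmprss11g, Tmprss11d, Tmprss13, Tmprss11b, Tmprss11a, Tmprss11e and Tmprss11f. Each neighbouring pair in that order overlapped across the 5 tumors. Dlx3 KO skin began with Tmprss4 (65.7 RPKM), Spint1, St14 and Tmprss13 (28.6 RPKM). A gap without overlap separated these from Tmprss11f (4.86 RPKM) and the other cluster genes. WT skin began with Spint1 (70.0 RPKM), St14 (45.5 RPKM), Tmprss4 and Tmprss13 (12.8 RPKM), again with a gap before the cluster. In tumors Tmprss11g (18.1 RPKM) and Tmprss11d (17.0 RPKM) lay above Tmprss13 (16.1 RPKM) in the order of means, with overlap.

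The genes whose profiles over the 11 libraries were most like those of the 10 were found by the mean absolute difference of log2(RPKM + 0.5) after centring each gene, among 13345 genes. For Tmprss11a the nearest was Tmprss11b (mean absolute difference 0.32), and for Tmprss11d the nearest were Tmprss11a (0.46) and Klk12 (0.53), a kallikrein. Nearest to Tmprss11g was Gsto1 (0.43), a glutathione transferase of the omega class, which averaged 698 RPKM in tumors, 55.9 RPKM in the Dlx3 KO skins and 30.4 RPKM in WT skin. Fetub, a secreted protease inhibitor, was near Tmprss11b (0.34). Tmprss11e had Ccne1, cyclin E1, as its nearest gene (0.30). Tmprss11f had Acpp (0.16), Clca3a1 (0.21) and Gsdma3 (0.23), the last a gasdermin of mouse skin. For Tmprss4 they were Slc26a9, Dmkn and Elovl4 (0.18 to 0.22), and for Tmprss13 Elovl1 (0.14). Dmkn encodes dermokine of the upper epidermis, and the Elovl genes encode enzymes that lengthen fatty acids of skin ceramides. For St14 the nearest were Ccp110, Rnf34 and Eif2b5 (0.107 to 0.115), and for Spint1 they were H1f0, Zfp664 and Tbc1d9 (0.129 to 0.151). Among the 10 genes, the closest pairs were St14 with Spint1 (0.23), Tmprss4 with Tmprss13 (0.27) and Tmprss11a with Tmprss11b. St14 and Spint1 were thus each closer to other genes than to each other, and genes that vary little come out close on this measure. These distances are descriptions over libraries that share tissue makeup.

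In Dlx3 KO tumor against Dlx3 KO skin, the authors' deposited table had Tmprss11b, Tmprss11a and Tmprss11g as the leading fold changes, the order found here. Its ratio of Dlx3 KO tumor to Dlx3 KO skin was 20.3 for Tmprss11b (q = 0.00899), 19.8 for Tmprss11a (q = 0.00655) and 11.4 for Tmprss11g (q = 0.00533). These were the 3 of the 10 genes with a q under 0.05 there, while Tmprss11d (8.22, q = 0.0905), Tmprss11e (3.63, q = 0.0658) and Tmprss11f (0.219, q = 0.114) did not reach it. For Dlx3 KO tumor against WT skin the authors' deposited table had 4 genes under that q, in another order than here (ratios of 55.4 for Tmprss11b, 38.6 for Tmprss11a, 37.9 for Tmprss11d and 29.5 for Tmprss11g), and for Dlx3 KO skin against WT skin 0.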

How the data were processed

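Total RNA depleted of ribosomal RNA was sequenced as single 50 bp reads, per the labels' protocols, and processed with bcl2fastq 2.20.0.422, Bowtie and TopHat2 2.1.1 on build mm10, per the submitters' processing notes. RPKM per gene were computed by the authors with Partek, per the file headers. The count of alignments per library is from the authors' deposited sample sheet, which also gives the sequencing run. The ratio, p-value and q-value per gene in the authors' deposited table come from their ANOVA. Gene counts are not used here, so precision was read from the scatter among libraries. RPKM are shares of a library and shift together when abundant transcripts change.

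Values were taken as log2(RPKM + 0.5). Of 24974 genes, 14233 (mean over the 11 libraries of 0.5 RPKM or more) were fitted in 3 groups with limma 3.58.1 in R 4.3.3 (trend and robust, two-sided, Benjamini-Hochberg over all tested genes, called under 0.05). The script was tested on simulated data. St14 to Spint1 ratios were compared by exact permutation in Python 3.11.15 with scipy 1.17.1. Positions and shared 50-base stretches are from GENCODE M21, promoters from RefSeq. All 10 genes are named, with up to 4 genes of smallest p per list, the 3 nearest profiles per gene and neighbours of the cluster. Genes of predicted or clone-like name were left out of the profile search. The genes and lists were chosen with earlier results of these data known. Alternatives covered pseudocount, filter, scaling, limma settings, run, Xist level, a replicate block, fits of only the compared groups and fits without single libraries. A further fit left out both tumor 5 and WT skin 1. The second run alone, and fits without single libraries for genes of the lists, were added after seeing the data. Spint2 was named as the inhibitor related to Spint1, after its values were seen.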

Additional observations from a re-analysis of the deposited data

Results flagged for a closer look

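Tmprss11b in tumor 3 was at 34.5 RPKM, far above the other 4 tumors (7.002 to 13.5 RPKM). Its gap to the nearest tumor was 0.765 of the range of the group, above the critical value of 0.71 for 5 samples. This gap was taken on RPKM and not on the log2 scale of the fits, where high values stand out less. It was 1 of 11 groups of values examined in this way, and chance flags about 1 in 20. With tumor 3 left out, Tmprss11b stayed called in tumors against Dlx3 KO skin and against WT skin.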

How the results depend on the processing

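Over 25 alternative settings for Dlx3 KO tumor against Dlx3 KO skin, Tmprss11a stayed called in all, Tmprss11b, Tmprss11d and Tmprss11g in 24 each, Tmprss11e in 19 and Tmprss11f in 9. Against WT skin, Tmprss11a, Tmprss11b, Tmprss11d and Tmprss11g stayed called in all 24, Spint1 in 9. Tmprss11a and Tmprss11b had to differ between tumor and skin, and the family was chosen with values of these data known. The counts of settings therefore describe how the calls depend on processing and are no evidence about the family. Dlx3 KO skin against WT skin had 0 of the 10 genes called in every setting. The cause of the changes given here was not tested.

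The number of the 10 genes called in Dlx3 KO tumor against Dlx3 KO skin was 6, with 2 in the second run alone, which has 1 Dlx3 KO skin, and 4 to 6 when each library was left out in turn. Against WT skin it was 5, and 4 to 7 without each library. The St14 to Spint1 log2 difference in Dlx3 KO skin against WT skin was -0.04, and -0.21 to 0.097 without each library, turning sign without WT skin 1. For St14 in tumors against Dlx3 KO skin, the sign turned under median-ratio scaling (0.13), quantile scaling (0.10) and in the second run (0.089). For Tmprss4 in tumors against WT skin it turned with run as a term (-0.19) and in the first run alone (-0.86). For Tmprss13 it turned in those fits (-0.73 and -1.28) and without tumor 1 (-0.02) or WT skin 1 (-0.15), with a range of -0.15 to 0.69 without each library.

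Over all tested genes, 1075 were called in tumors against Dlx3 KO skin (142 higher, 933 lower), with 176 in the second run, 345 without Dlx3 KO skin 3, 2866 without tumor 1 and 579 with the Xist level as a term. Against WT skin, 2208 were called, with 705 with run as a term and 1268 without WT skin 3. Between the skins, 0 were called, with 13 without tumor 5 and 234 without the library labelled WT skin 2. Median-ratio scaling moved the median log2 fold change of all genes in tumors against Dlx3 KO skin to 0.02 (main value -0.23), with 342 higher and 799 lower, and against WT skin to 0.04 (main value -0.14), with 1185 higher and 1632 lower. Quantile scaling gave 487 higher and 634 lower, and 1461 higher and 1373 lower.

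Same-numbered samples did not deviate together (r from -0.41 to 0.18 over the pairs of groups), so the numbers were not taken as a pairing. Only a tumor and a Dlx3 KO skin could share a mouse, and for numbers 1, 2 and 3 their r was 0.0085, -0.003 and -0.1083. The samples of number 3 were far apart in Xist, at 0.616 RPKM in tumor 3 and 14.6 RPKM in Dlx3 KO skin 3. With so few libraries, the check cannot exclude shared animals. With a replicate block, 5 of the 10 genes were called in tumors against Dlx3 KO skin (357 of all), with Tmprss11f lost (-1.61, adjusted p = 0.138), 4 against WT skin (986 of all) and 0 between the skins. At low RPKM the depth limits what can be seen: Tmprss11a and Tmprss11b in WT skin rest on values under 0.5 RPKM.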
